A study of Petromyzon marinus with 6 samples.

Results

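Of 87262 transcript units in a developmental series of the sea lamprey (Petromyzon marinus), 78 were well counted in day 1 embryos and were almost uncounted from day 4 on. Each unit is a component, that is, a group of assembled contigs that share an identifier apart from the final sequence number. The 78 were chosen by their counts: 100 or more fragments on day 1, and fewer than 3 on day 4 and on day 5. They are 0.546% of the 14275 components with 100 or more counts on day 1. Because days 1, 4 and 5 chose them, their levels on those days are given as a description. Days 2, 2.5 and 3 and the make-up of the components were not used in the choice. They are not independent of it, since each member had to fall by day 4 and the rule can favour some kinds of make-up. The fate of related components is read on days 4 and 5, and the rule fixes it where a related component is also a member.

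Whole embryos were sampled on day 1, day 2, day 2.5, day 3, day 4 and day 5 after fertilization, with 1 paired-end RNA-seq library of total RNA for each stage. No treatment or genotype is labelled, and the number of embryos and spawnings behind a library is not given in the labels. Differences between stages thus lack replicates, and every interval covers counting error only. Fragments counted on the assembled contigs numbered 15503476 to 21910119 per library, and percentages of a library refer to these totals. CPM are counts scaled to a common library size, with TMM factors. On this scale 3 counts were 0.119 on day 1, 0.185 on day 4 and 0.221 on day 5. The files pair no contig with a gene name, and 0 of 145913 identifiers occurred among 45433 named lamprey genes, so the components are given by identifier, counts and length.

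An embryo starts with RNA that the mother placed in the egg. As the embryo's own genome becomes active, part of that store is degraded, while other transcripts are held or replaced by new synthesis. The sea lamprey adds a further process: during early development its somatic cells discard a share of the genome that the germline keeps. A transcript can therefore vanish from whole-embryo RNA through decay of maternal molecules or through loss of the DNA that encodes it, and these cannot be told apart here, nor can fewer cells of a type and less RNA per cell.

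The 78 components were modestly abundant on day 1, fell in 2 stages and were close to 0 by day 4. Together they held 13231 counts on day 1, 4571 on day 2, 5801 on day 2.5, 968 on day 3, 85 on day 4 and 83 on day 5. This was 0.000428% of the day 4 library (exact 95% Clopper-Pearson interval 0.000342% to 0.000530%), against 0.0604% of the day 1 library (0.0594% to 0.0614%). The rule held each member under 3 counts on day 4, so this contrast describes the rule. The intervals do not take the choice into account. On the CPM scale the sums were 525, 226, 262, 53.2, 5.23 and 6.12 in the order of the stages. The days 2 and 2.5 libraries thus lay close together, below day 1 and above day 3.

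Single components ran from 100 to 500 counts on day 1, with a median of 135. Per length, day 1 levels in the authors' deposited TPM ran from 3.10 to 67.5 with a median of 14.4. On day 2 the lowest member had 9 counts, the median 58.5 and the highest 194. On day 2.5 these were 9, 66.5 and 323 counts, and on day 3 they were 0, 9.5 and 62. On day 3, 9 members were already under 3 counts, 2 of them at 0. On day 4, 23 members had 0 counts, 25 had 1 and 30 had 2, and on day 5 the corresponding numbers were 24, 25 and 29. The floor of 3 counts lay 21.5-fold to 107-fold below the members' day 1 CPM in the day 4 library, so a small remainder could not be detected.

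**Figure D1:**
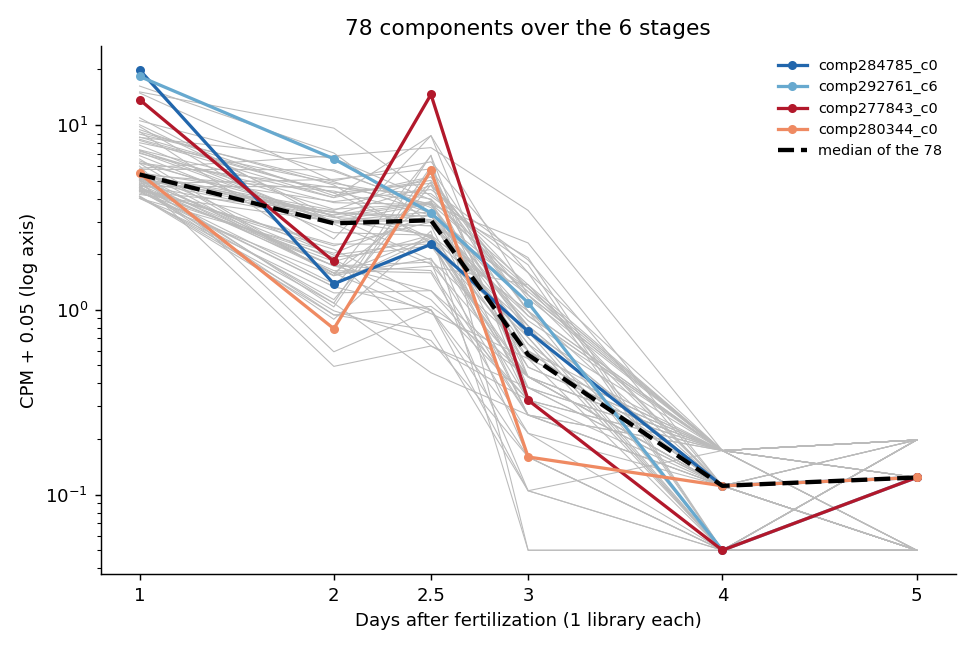
CPM plus 0.05 on a log axis for each of the 78 components (grey lines, 1 library per stage), with the median dashed in black and 4 named components in colour. The median lay level between day 2 and day 2.5 (2.89 and 3.00 CPM) and was 0.522 CPM on day 3, while the 2 components in red and orange were higher on day 2.5 than on day 2.

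The 2 members with the most day 1 counts followed unlike paths. The first, lcl|comp284785_c0, had 500 counts on day 1, 27 on day 2, 49 on day 2.5, 13 on day 3, 1 on day 4 and 1 on day 5. It was already at 6.72% of its day 1 CPM by day 2, the lowest share of the 78. Its day 3 CPM was 0.322 times its day 2.5 CPM (95% counting interval 0.160 to 0.604). The second, lcl|comp292761_c6, is 1 contig of 1221 nt and had 461, 132, 73, 19, 0 and 1 counts over the 6 stages. It fell at each stage up to day 4, with 35.6% of its day 1 CPM on day 2, 18.0% on day 2.5 and 5.71% on day 3. Its cluster of 4 components, which share an identifier up to the subcomponent number, held another component that was still counted late.

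A further pair of members were chosen for the largest rise between day 2 and day 2.5, so this rise is a description. The first, lcl|comp277843_c0, is 1 contig of 2300 nt with 345 counts on day 1, 36 on day 2, 323 on day 2.5, 5 on day 3, 0 on day 4 and 1 on day 5. Its day 2.5 CPM was 8.21 times its day 2 CPM (5.81 to 11.9), and its day 3 CPM was 0.0188 times its day 2.5 CPM (0.00607 to 0.0444). The second, lcl|comp280344_c0, is 1 contig of 1703 nt with 137, 15, 125, 2, 1 and 1 counts over the 6 stages. In both, the days 1 and 2.5 libraries were high and the days 2 and 3 libraries low, so neither course was a steady decline.

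The members with extreme middle stages show how wide the set is. The one with the most day 3 counts had 146 counts on day 1, 137 on day 2, 166 on day 2.5, 62 on day 3, 2 on day 4 and 0 on day 5. It was held through day 2.5, was lower on day 3 and was almost uncounted on day 4. The one with the fewest day 2 counts had 125, 9, 13, 6, 2 and 2 counts over the 6 stages, and so had been largely cleared by day 2. The one with the longest contig, of 3780 nt, had 122, 34, 27, 5, 1 and 0 counts. On day 2, 16 members had at most 25% of their day 1 CPM, 28 had over 50% and 2 were above their day 1 level. On day 2.5, 10 were above it. On day 3, 47 had at most 10% of their day 1 CPM and 7 had over 25%.

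Components of like abundance were used to set these courses in context. The range of 100 to 500 day 1 counts held 7540 components: the 78, 7229 that persisted with 3 or more counts on day 4 and on day 5, and 233 under 3 counts on just one of those days. Among the persisting, 1345 were falling, with at most 25% of their day 1 CPM on day 4 and on day 5. Another 3691 of the persisting were held at 50% or more on both days.

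The 78 stood lower on day 2 than either comparison set. Their median was 41.0% of day 1 CPM on day 2, against 72.5% for the falling components and 90.5% for all persisting ones. On day 2.5 the medians were 49.8% for the 78, 66.5% for the falling and 86.4% for the persisting. On day 3 they were 7.81%, 24.0% and 65.0% in the same order. The upper quartile of the 78 on day 3, 14.4%, lay below the lower quartile of the falling components, 14.7%. The same order of the 3 sets held on day 2 within each range of day 1 counts. For 100 to under 150 counts the day 2 medians were 37.1%, 69.3% and 89.1%. For 150 to under 200 they were 41.3%, 74.4% and 89.6%, and for 200 to 500 they were 43.6%, 73.3% and 91.3%. These shares have day 1 in the denominator, which the choice used, and only steps between later libraries are free of that denominator. The rule still requires a fall by day 4, so those steps are not independent of the choice.

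**Figure D2:**
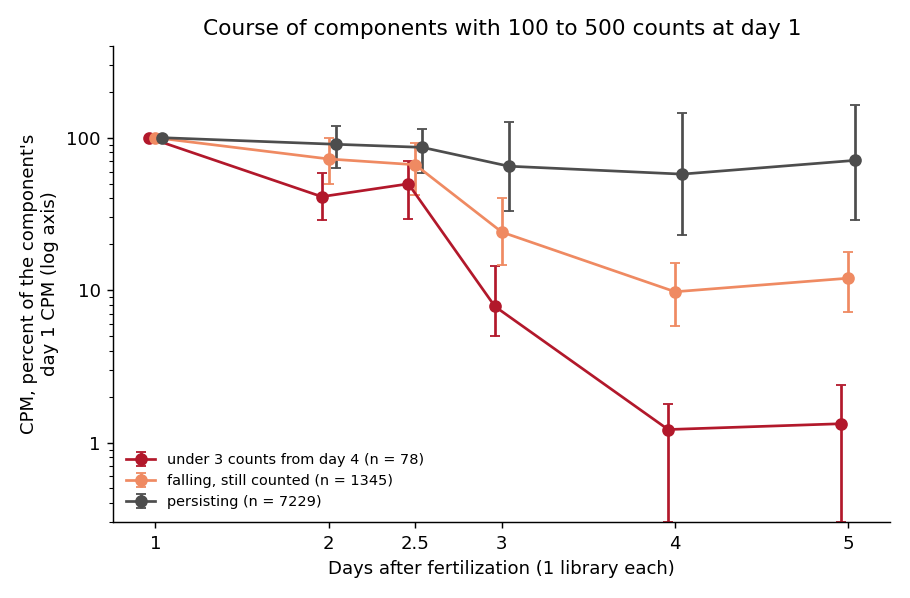
Median CPM at each stage as a percent of the component's own day 1 CPM, on a log axis, for the 78 components (red), the 1345 falling but still counted (orange) and all 7229 persisting (grey, which include the falling). Bars span the interquartile range over components, and those of the 78 run off the axis on days 4 and 5, where the lower quartile was 0. The 78 lay at 41.0% on day 2, 49.8% on day 2.5 and 7.81% on day 3.

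Between day 2 and day 2.5, 2 libraries that did not choose the set, the 78 changed little as a group. Their median log2 fold of day 2.5 over day 2, on the log2(CPM + 0.5) scale, was 0.07, against -0.19 for the falling and -0.09 for the persisting components. In 42 of the 78 the day 2.5 CPM was above the day 2 CPM. The median log2 fold of all components tested was 0.0, so a nearly even split was also the background. The 95% counting interval of the fold lay wholly above 1 in 17 members (21.8%), against 21.2% of the 31146 components tested, and wholly below 1 in 15 (19.2%), against 22.6%. These shares were near the background. No member was 4-fold lower on day 2.5, where 0.295% of all components tested were.

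A few members nevertheless rose 4-fold on day 2.5. There were 4 of 78 (5.13%), against 0.642% of all components tested and 11 of 7229 persisting ones (0.152%). All 4 were single contigs, as were 67.9% of all members, and all 4 were 4-fold lower again on day 3. Besides the 2 named above, 1 had 127 counts on day 1, 20 on day 2, 131 on day 2.5, 6 on day 3, 1 on day 4 and 0 on day 5. The other had 102, 21, 151, 0, 0 and 1 counts. Such a rise and fall occurred in 14 of the 7540 components with 100 to 500 day 1 counts, these 4 members among them. It occurred in 6 of the 7229 persisting and in 141 of the 31146 tested. These 4 members took the summed counts of the set with them: without them the other 74 had 5071 counts on day 2.5, against 4479 on day 2, a ratio of CPM of 1.04 (0.995 to 1.08). With them the ratio was 1.16 (1.12 to 1.21). That the days 1 and 2.5 libraries were high together here was not tested further, since each stage is 1 library. Which members count as 4-fold risers depends on the pseudocount of 0.5 CPM. Without it, a member of 3 contigs rose 4.58-fold (3.08 to 7.02) and a member of 2 contigs 4.33-fold (2.71 to 7.20). The single-contig trait of the 4 thus depends on the call.

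Between day 2.5 and day 3 the 78 fell steeply. All 78 had a lower CPM on day 3 than on day 2.5, and all 78 had a lower one than on day 2. Most falling components were lower too: the upper quartile of their log2 fold was -0.70 over day 2.5 and -0.92 over day 2. For all components tested these upper quartiles were 0.73 and 0.81. Summed, they had 968 counts on day 3, against 5801 on day 2.5, a 4.93-fold lower CPM (95% counting interval 4.61 to 5.28). The falling components were 2.32-fold lower over the same step (2.30 to 2.34). Their late rule was milder, so this difference is not independent of the choice. Without the 4 risers the other 74 members were 4.37-fold lower (4.08 to 4.69). Set against day 2 in place of day 2.5, the summed CPM of the 78 on day 3 was 4.25-fold lower (3.96 to 4.56), and that of the falling components 2.59-fold lower (2.57 to 2.61).

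The median member had a log2 fold of -1.55 for day 3 over day 2.5, against -1.11 for the falling and -0.28 for the persisting components, and -0.02 for all tested. Members had to be under 3 counts on day 4, which was not required of all components tested. A gap between members and all tested at this step is thus partly set by the rule. The counting interval lay wholly below 1 in 73 of the 78 (93.6%), against 34.6% of all components tested and 85.8% of the falling. It lay wholly above 1 in 0 members, against 34.0% of all tested and 0.595% of the falling. By the stricter call of 4-fold on the log2(CPM + 0.5) scale, 19 of 78 were lower (24.4%), against 2.4% of all tested and 102 of the 1345 falling (7.58%). The count depends on the pseudocount, since most members were near 0.5 CPM on day 3: with 0.05 CPM in its place 44 members were 4-fold lower (56.4%), against 16.1% of the falling and 5.67% of all tested. Against day 2, 8 members were 4-fold lower on day 3 (10.3%), near the 10.1% of the falling components and above the 2.13% of all tested. No member was 4-fold higher on day 3 than on day 2.5, where 5.17% of all tested were. None was 4-fold higher than on day 2, where 6.27% were. Among the 1345 falling components, 0 were 4-fold higher in either comparison. With 0.05 CPM as the pseudocount, 50 members were 4-fold lower on day 3 than on day 2 (64.1%), against 22.8% of the falling and 5.80% of all tested, and with 1 CPM it was 1 member (1.28%), against 4.24% and 1.24%. Whether the 78 exceeded the falling components in this call against day 2 thus depended on the pseudocount.

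**Figure D3:**
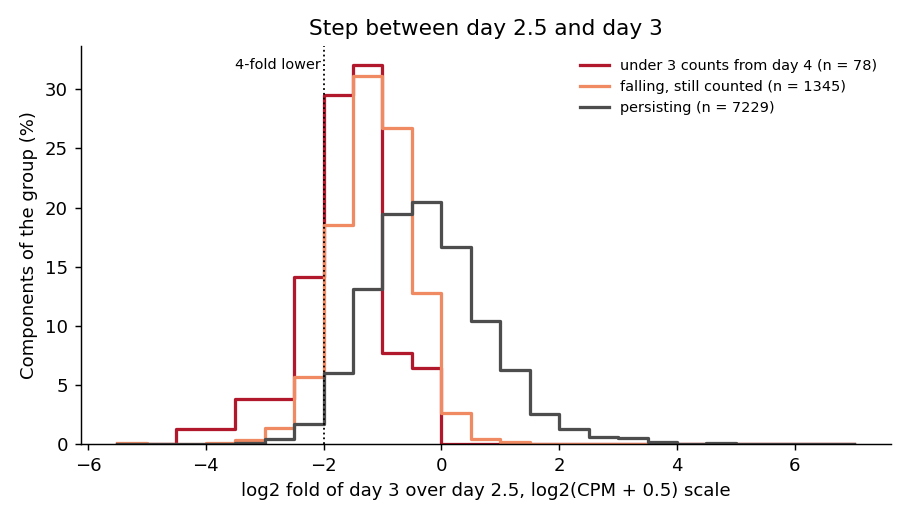
Share of components (%) by log2 fold of day 3 over day 2.5 on the log2(CPM + 0.5) scale, in bins of 0.5, for the 78 components (red), the falling (orange) and all persisting (grey). The dotted line marks 4-fold lower, and the medians are -1.55, -1.11 and -0.28.

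The fall did not follow a straight line in log abundance, so 1 decay rate describes it poorly. As a rate, the summed CPM moved by -1.22 log2 units per day between days 1 and 2 (-1.27 to -1.17), by 0.43 between days 2 and 2.5 (0.32 to 0.54) and by -4.60 between days 2.5 and 3 (-4.80 to -4.41). The first and last of these are halving times of 19.7 and 5.21 hours, and for the falling components they were 62.8 and 9.88 hours. Without the 4 risers the last was 5.64 hours. Between days 2 and 3 the halving time was 11.5 hours for the 78 and 17.5 hours for the falling. These are times of relative CPM, not half-lives of RNA, and they depend on the scaling: the TMM factor was 1.20 on day 2.5 and 0.877 on day 3. Day 1 chose the set, so rates that include it are a description, and the falling components had a milder late rule. Between days 3 and 4 the rate was -3.34 (-3.68 to -3.02), but day 4 chose the set. A Poisson line through days 2, 2.5 and 3 gave a median of -1.44 log2 units per day over the 78, -1.24 over the falling and -0.40 over the persisting components. Including day 1, the medians were -1.08, -0.66 and -0.23. For the 78, leaving out day 3 turned the median over days 2 to 3 to 0.17 and leaving out day 2 made it -4.67, which reflects the level stretch followed by the steep step.

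With edgeR's quasi-likelihood test of a linear trend over days 2, 2.5 and 3, 0 of the 77 members tested had a falling trend at a Benjamini-Hochberg adjusted p of 0.05. The lowest adjusted p among them was 0.16. The remaining member had under 30 counts in these 3 libraries. At an unadjusted p under 0.05, 14 of the 77 were falling (18.2%). This was near the 18.8% of the falling components and above the 4.85% of all 31212 tested. Members and falling components had to be low by day 4, so both of their shares are partly set by the choice. At that p, 0 of the 77 and 0 of the 1344 falling components tested were rising, against 12.2% of all tested. The test called 0 falling components of 31212, a background of 0%, and 34 rising, or 0.109%. Its spread is the deviation from a line with 1 residual degree of freedom. DESeq2's Wald test and limma on log2(TPM + 1) also called 0 members, against 0.384% and 0.00961% of all components tested, and edgeR with no filter called 1 of 78 members (1.28%), against 2.60% of the falling and 0.518% of all tested. All 77 slopes were below 0, as were those of 1322 of the 1344 falling components. Among the persisting it was 4489 of 7227, and among all components tested 15474 of 31212. The medians were -2.17 log2 units per day for the members and -1.43 for the falling components. For the same days the Poisson lines gave -1.44 and -1.24, and lines through log2(CPM + 0.05) gave -2.30 and -1.50. The size of the gap between the 78 and the falling components thus depended on how the line was fitted.

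Low abundance was built into the set by the floor of 3 counts. Members were 46 of 1990 components with 100 to under 150 day 1 counts (2.31%) and 13 of 1408 with 150 to under 200 (0.923%). They were 19 of 4142 with 200 to 500 (0.459%) and 0 of 6735 with more. The last 0 holds by definition, since the highest day 1 count of a member, 500, set the edge of the ranges. A fold rule that depends less on depth gave a flat picture. Components whose CPM on day 4 and on day 5 was at least 20-fold below that of day 1 were 3.72%, 3.69%, 3.14% and 3.58% of the same 4 ranges. They numbered 497 in all, and the 78 were 15.7% of them. The 241 such components above 500 day 1 counts had a median of 1400 counts on day 1 and kept a median of 23 on day 4 and 17 on day 5. As medians, the 78 were at 1.22% of their day 1 CPM on day 4 and 1.33% on day 5, against 2.61% and 2.06% for these 241. All these values are of days that chose the set, so they describe the rule. At its edge, 42 members had 2 as the larger of their day 4 and day 5 counts, 49 components just outside had 3, and 47 had 4. Just inside, the median on day 3 was 9.60% of day 1 CPM, and just outside it was 14.7%. With 90 to 99 day 1 counts, 15 components met the late rule, beside 10 members with 100 to under 110.

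**Figure D4:**
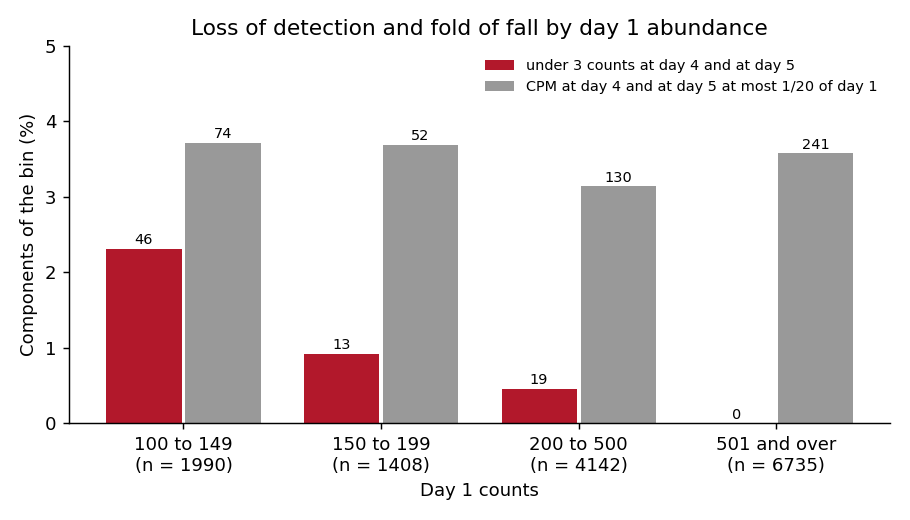
Percent of components in each range of day 1 counts that were under 3 counts on day 4 and on day 5 (red) or at most 1/20 of their day 1 CPM on both days (grey), with the number of components above each bar. The red bars fall from 2.31% to 0.459% up to 500 counts, while the grey bars stay between 3.14% and 3.72%. Above 500, the highest day 1 count of a member, the red bar is 0 by definition.

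In make-up, the 78 were simpler and shorter than persisting components, though not in every range of abundance. They comprised 133 contigs. A single contig made up 53 of the 78 (67.9%), against 59.6% of the falling and 53.7% of the persisting components. The mean was 1.71 contigs for the 78, 2.17 for the falling and 2.96 for the persisting, while the median was 1 in each set. No member had more than 8 contigs, and 0 had over 10. This compares with 25 of the 1345 falling (1.86%) and 295 of the 7229 persisting (4.08%), both small shares for a set of 78. The longest contig of a member ran from 501 to 3780 nt with a median of 1042.5 nt, against 1251 nt for the falling and 1356 nt for the persisting. Contigs over 3000 nt occurred in 2 members (2.56%), 6.69% of the falling and 795 of the 7229 persisting.

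Contig length rises with day 1 counts, and the 78 lie at the low end of their range, so ranges were also compared. At 100 to under 150 day 1 counts the 46 members had a median of 941.5 nt and a single-contig share of 73.9%, against 1074.5 nt and 68.2% for the falling and 1167 nt and 55.4% for the persisting. At 200 to 500 counts the 19 members had 1221 nt and 68.4%, against 1345 nt and 56.1%, and 1493 nt and 52.5%. The interval of the 68.4%, 43.4% to 87.4%, covered both other shares. At 150 to under 200 counts the members changed place and had the longest contigs and the lowest single-contig share: the 13 members had 1342 nt and 46.2%, against 1140 nt and 61.1% for the falling, and 1216 nt and 54.9% for the persisting. The interval of the 46.2%, 19.2% to 74.9%, also covered both other shares. Within the 78, the 53 single-contig members had a median of 6.54% of day 1 CPM on day 3, against 10.3% for the 25 of several contigs.

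**Figure D5:**
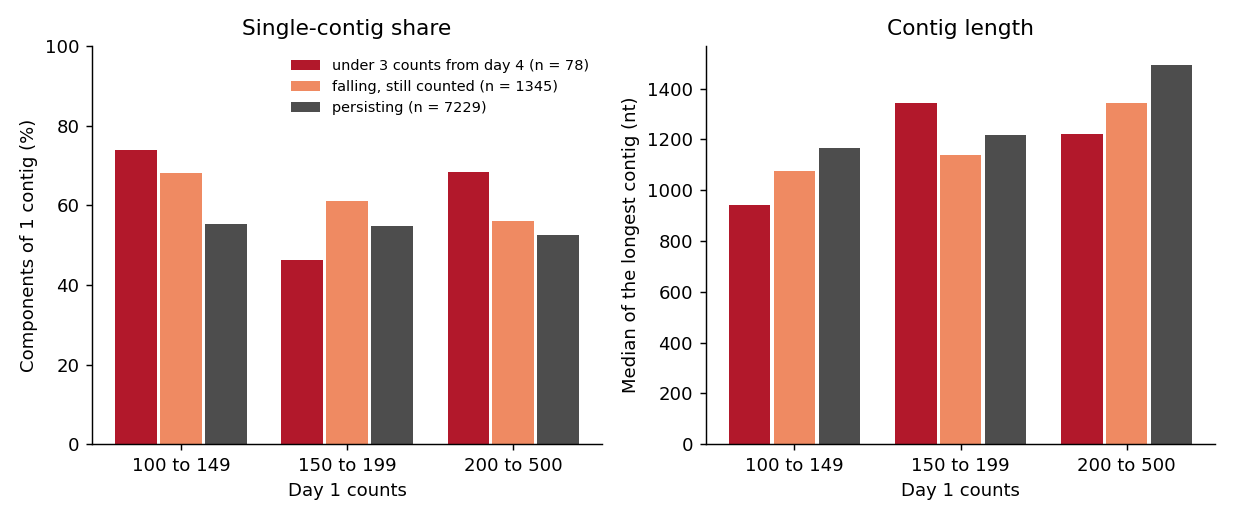
Left, percent of components that consist of 1 contig, and right, median length in nt of the longest contig, in 3 ranges of day 1 counts for the 78 components (red), the falling (orange) and the persisting (grey). In the lowest range the single-contig shares are 73.9%, 68.2% and 55.4%, and in the middle range, with 13 members, the members have the lowest share and the longest contigs.

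RSEM divides a fragment that matches several contigs, which leaves a count that is not whole. On day 1 such a divided count, more than 0.005 from a whole number, occurred in 34 of the 78 (43.6%), against 59.0% of the falling and 60.8% of the persisting components. Among single-contig components, where the partner must lie in another component, it was 14 of 53 members (26.4%), against 42.3% and 42.4%. The gap was smaller at 200 to 500 day 1 counts, where the single-contig shares were 6 of 13 members (46.2%), 50.3% and 49.4%. At 100 to under 150 they were 6 of 34 members (17.6%), 34.4% and 31.0%. At 150 to under 200 they were 2 of 6 members (33.3%), 28.6% and 37.7%, so the members lay between the other sets there.

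In the 25 members of several contigs, the counts were not spread evenly. Of their 80 contigs, 51 had a count on day 1, and the main contig held a median of 73.7% of its component's day 1 counts and never under 50%. The main contig on day 1 was also the main one on day 2 in 21 members and on day 2.5 in 18. In 17 it was the main one on both. The most counted member, lcl|comp284785_c0, has 8 contigs. Its contig 6, of 2558 nt, had 340 counts on day 1, 10 on day 2 and 0 at each later stage. Contig 2, of 2792 nt, had 97 on day 1, 0 on day 2, 17 on day 2.5 and 0 afterwards. Contig 8, of 2442 nt, had 0 on day 1, 17 on day 2, 20 on day 2.5, 0 on day 3, 1 on day 4 and 1 on day 5. In this component the main contig thus differed between day 1 and later stages while the component as a whole fell. The other member of 8 contigs kept its main contig, of 3562 nt, with 151 counts on day 1, 52 on day 2, 84 on day 2.5 and 22 on day 3. Near-identical contigs can trade fragments in RSEM, so the component sum is the safer value.

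The 78 lay in 71 clusters of components, and 28 were the only component of their cluster. In 41 (52.6%) another component of the cluster was still counted late, with at least 3 fragments on day 4 or day 5, against 807 of the 1345 falling (60%) and 56.5% of the persisting components. With at least 100 fragments on day 4 or day 5 as the requirement, it was 17 of the 78 (21.8%), 27.9% of the falling and 37.2% of the persisting. The share was thus no higher in the 78 than in either comparison set. Among members with any other component in the cluster, 41 of 50 (82.0%) had one with at least 3 fragments late, against 96.5% and 98.3%. These shares are not free of the choice. By the rule, a related component that is itself a member cannot be counted late, and 13 members share a cluster with another member. A related component that is persisting is counted late by definition. With counts summed over whole clusters, 39 of the 10140 clusters with 100 or more day 1 counts met the rule (0.385%), and 35 of the 78 lay in them. These 35 include the 28 that were the only component of their cluster, for which this holds by definition. Components of 1 cluster can be splice forms, parts of 1 gene or related copies, which the files do not tell apart.

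Members of the same cluster had similar courses. The 13 members that share a cluster with another lay in 6 clusters, giving 8 pairs. The median absolute difference in log2 of day 2 over day 1 CPM was 0.27 within these pairs and 0.74 over the 2995 pairs of different clusters. For day 2.5 it was 0.19 and 0.95, and for day 3 it was 0.71 and 1.14. In 1 pair the components, both single contigs, of 1442 and 1057 nt, had 127 and 124 counts on day 1, 63 and 61 on day 2, 65 and 55 on day 2.5, and 23 and 17 on day 3. Their cluster also held a component of 2250 nt with 597, 423, 402, 543, 460 and 459 counts over the 6 stages, which kept its level while they fell. In another cluster 3 members had 237, 115 and 100 counts on day 1 and 20, 6 and 4 on day 3, beside a component of 8 contigs with 2864 counts on day 1, 3908 on day 3 and 1677 on day 5.

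One cluster repeated the rise on day 2.5 in every one of its components. Its 4 single contigs, of 900, 534, 517 and 759 nt, had 246, 127, 62 and 253 counts on day 1. On day 2 they had 48, 20, 5 and 42, on day 2.5 they had 193, 131, 35 and 207, and on day 3 they had 7, 6, 1 and 11. The first 2 are members. The third had too few day 1 counts, and the fourth kept 5 counts on day 5 and so lay just outside the rule. Components of 1 cluster may be parts of 1 transcript, so they are not independent repeats of this course.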

How the data were processed

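RSEM made the deposited files, per the submitters' processing notes; no source used here names an RSEM version, an aligner or an assembler. Each of the 6 libraries (1 per stage) has, per the file headers, an expected count per contig, which is the authors' estimated count of fragments, not normalized. The deposited TPM values, divided by effective length, served as levels per length and as an alternative; the deposited FPKM values were not used. Contig lengths are in nucleotides, per the file headers.

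Expected counts were rounded per contig and summed by component. CPM values used library totals scaled by TMM factors from edgeR 4.0.16 (0.819 to 1.20), computed on the 31146 components with 60 or more counts over the 6 libraries. Folds were taken as log2(CPM + 0.5), so changes of low components are understated; for a 4-fold call the fold's 95% counting interval (exact Clopper-Pearson) had to exclude 1 as well. The trend test used edgeR's quasi-likelihood test on days 2, 2.5 and 3, for 31212 components with 30 or more counts there. Lines were Poisson fits per component without a pseudocount, with TMM-scaled totals as offset. Both the test and the calls were checked on simulated counts. For the test these followed straight lines, and for the calls they held counting error only. A level course followed by a steep step was not covered, nor was variation between libraries in the calls. Software was Python 3.11.15 with pandas 2.3.3, scipy 1.17.1 and numpy 2.4.6, and R 4.3.3 with limma 3.58.1 and DESeq2 1.42.0.

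The members, comparison sets and tests were chosen with earlier results of these data known. At most 4 identifiers are printed, as no gene names could be matched: the 2 members with the most day 1 counts and the 2 with the largest rise from day 2 to day 2.5 whose interval excludes 1. Other members are described as those with the most day 3 counts, the fewest day 2 counts, the most contigs or the longest contig; the clusters, the other 4-fold risers and the contigs described were picked after their values were seen.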

Additional observations from a re-analysis of the deposited data

How the results depend on the processing

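Of 66 recomputed values, 27 kept their direction and stayed within 1.5 times of a reported count or within the interval of another value, 38 moved and 1 reversed; where a cause is not given, the cause was not tested. The number of members, 78, was set by the rule: 250 from 50 day 1 counts, 19 from 200, 7 with 0 counts at day 4 and day 5, 242 when day 5 alone decided, 162 when day 4 alone decided, 515 with under 10 counts, 622 by contig, 51 with counts scaled to the smallest library and 39 by assembled cluster. The members 4-fold lower at day 3 than at day 2.5, 19, became 48 with the deposited TPM, 44 with a pseudocount of 0.05 CPM, 8 with 1 CPM, 67 at 2-fold and 5 at 8-fold, where 7.99%, 5.67%, 1.31%, 16.5% and 0.315% of all tested were lower. For day 3 against day 2, 8 became 49, 50, 1, 64 and 0 in the same order, with 8.69%, 5.80%, 1.24%, 18.5% and 0.0385% of all tested. At 2-fold 3 members (3.85%), not 0, were lower at day 2.5 than at day 2, near the 3.01% of all tested. The deposited TPM moved the median of all components by -0.48 (log2) between days 2.5 and 3 and by -0.45 between days 2 and 3, against -0.02 and -0.01 with TMM. With no filter 1 member, not 0, had a falling trend; the rank of the stage gave the same fit as the day, since the 3 stages are evenly spaced. The median line over days 2 to 3, -1.44 log2 units per day, became -1.74 with library totals, -1.85 with TPM denominators as offset, -2.77 through log2(TPM + 0.05) and -2.30 through log2(CPM + 0.05); leaving out 1 library it ran from -4.67 (without day 2) to a reversed 0.17 (without day 3). Over days 1 to 3 the median, -1.08, ran from -1.57 without day 2.5 to -0.81 without day 3. The 52.6% of members with another component of the cluster counted late became 21.8% at 100 or more counts. The summed log2 fold of day 3 over day 2.5, -2.30, became -2.82 with TPM denominators, -2.76 with library totals, -2.13 without the 4 risers and -2.09 against day 2. The components 20-fold lower, 497, became 876 with TPM denominators, 742 with library totals, 1181 at 10-fold and 168 at 40-fold. Clusters, the offset and CPM lines, the sets without the 4 risers, the summed fold and the 20-fold rule were chosen after seeing the data. No paired analysis was possible because there was a lone library at every stage. With under 3 counts, absence and low presence cannot be told apart.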
